A study of Mus musculus with 4 samples.

Results

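The miRNA names from miR-6896 to miR-7094 form a block given mostly to hairpins read out of introns, and every entry of the deposited table with a number in that range was taken, whatever its letter or arm. The rule used names alone and found 187 of the 1073 miRNAs listed, 93 from 5p arms and 94 from 3p arms, which belong to 134 hairpin names. The samples were 2 of ASO-transfected and 2 of CRO-transfected wild-type mouse spleen cells, labelled as naive CD4+ T cells, activated through CD3 and CD28 and collected for small RNA sequencing at 48 h. The series text names CRO as the control of ASO, while the authors' own tally of differential miRNAs puts ASO in the control column, and the fold they deposited has ASO as its denominator. All ratios here are given as ASO over CRO. The labels expand neither name nor give a target. Nothing in the labels says that the samples came from different mice or cultures, and a p-value here therefore reflects sample-to-sample spread that may be technical.

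Most animal miRNAs are excised from a long transcript by the nuclease Drosha and then trimmed by Dicer. Mirtrons skip the first step, because splicing of a short intron releases the hairpin and Dicer acts on it after the lariat is opened. In the tailed form only 1 end of the hairpin lies on a splice site, and the overhanging rest of the intron is removed by other nucleases. The seed, bases 2 to 8 of the mature strand, is the stretch through which a miRNA mainly pairs with its mRNA targets.

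The sequences shown first are the mature strands of the entries with the highest levels, and the other arm of their hairpins, where the RefSeq table (GRCm38.p6) holds them. They are written 5′ to 3′ with the seed in capitals.
miR-7033-5p: uCUCCAGGagucugaggggcagg
miR-7033-3p: uGCCUCCAuucucuugggcag
miR-6957-3p: uGGAUCUCuuguuuucucuucc
miR-7042-3p: uGUCCCUUuguuuucucucag
miR-6960-5p: cAGGAUGAgaagaguuuggcug
miR-6911-3p: uCAAUCACacucuguccacag
miR-6911-5p: uGGGCUGAgugggucuguggcau
These lie at chr5:135383783-135383805 (minus strand), chr5:135383730-135383750 (minus), chr15:80646113-80646134 (plus), chr6:113707245-113707265 (plus), chr15:99080810-99080831 (plus), chr10:80278212-80278232 (plus) and chr10:80278169-80278191 (plus), in the order listed. miR-7033-3p is shown as the partner strand of the highest entry and has no row in the deposited table. miR-6957-5p and miR-7042-5p, described below, are named only.

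The hairpin of miR-7033 shows the tailed form, and that of miR-6974 the form in which the hairpin is the whole intron. Capitals mark the bases that lie on a splice site, the donor GU and the acceptor AG.
miR-7033: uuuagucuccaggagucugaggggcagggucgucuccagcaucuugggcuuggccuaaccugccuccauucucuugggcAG
miR-6974: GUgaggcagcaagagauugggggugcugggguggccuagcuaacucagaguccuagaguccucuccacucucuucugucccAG
The first spans chr5:135383730-135383810 on the minus strand, ends on the last base of a 109-base intron of Pom121, a nuclear pore protein gene, and begins 28 bases after its donor. The second spans chr17:35204475-35204557 on the minus strand and is the whole 83-base intron of Lta, which encodes the cytokine lymphotoxin alpha.

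The name block was described by placing each hairpin of the GENCODE mouse annotation (GRCm38) in an intron of a protein-coding gene on the same strand. Since its names were given mostly to hairpins read out of introns, these positions describe the annotation and are no independent test of it. Where several annotated introns overlapped a hairpin, the one with an end closest to an end of the hairpin was taken, inside and outside the range alike, and an overhang of up to 10 bases was allowed. Of 201 annotated hairpins in the range, 198 (98.5%) lay in such an intron, against 400 of 962 hairpins outside it (41.6%). The last base of the hairpin was the last base of the intron for 185 (92.0%) of those in the range and for 20 (2.08%) of the others. Only 18 started on the first base of the intron, and 14 filled the intron from end to end. Counted by name, the block therefore held mostly hairpins with 1 end on the splice acceptor and few that were whole introns.

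The introns were shorter than those of other intronic hairpins, with medians of 484.5 and 12503 bases. Those of the range ran from 66 to 36269 bases. The hairpins themselves had median lengths of 66 and 84 bases. They fell in 193 host genes, and 5 of these (Ankrd52, Arap3, Cmip, Skiv2l and Srebf1) carried 2 hairpins each. The exceptions were Mir7025, which overlaps an exon and an intron of the receptor gene Pdgfra, and Mir7094-1 and Mir7094-2. Mir7094-1 and Mir7094-2 overlapped no exon or intron of a protein-coding gene on the same strand, and other gene types were not examined. Among the 132 annotated hairpins with a row in the deposited table, 130 were intronic and 122 (92.4%) ended on the acceptor.

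**Figure D1:**
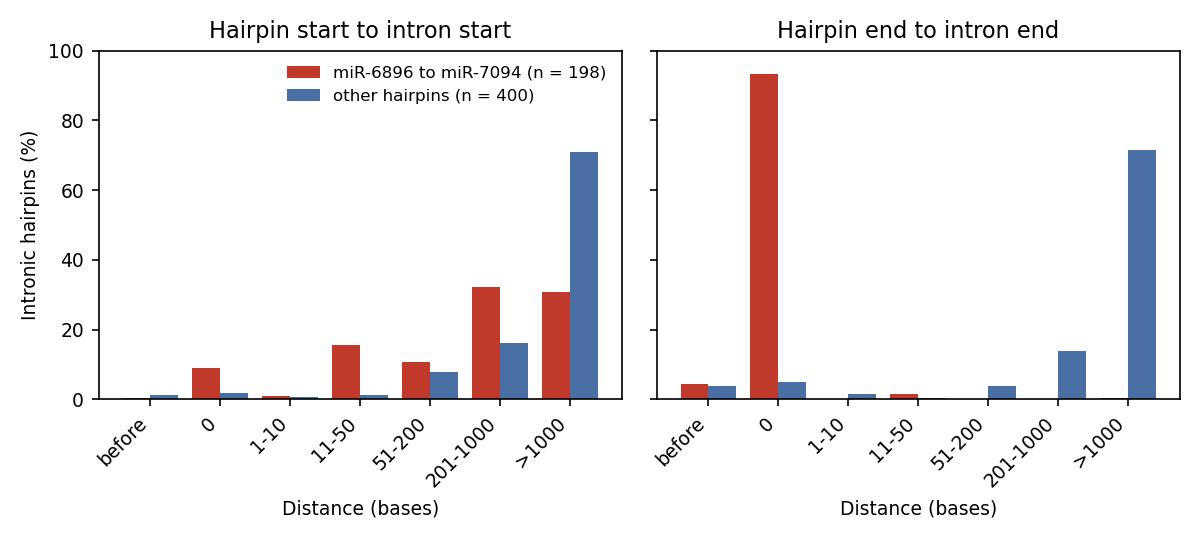
Distance in bases from the start of the hairpin to the start of its intron (left) and from the end of the hairpin to the end of the intron (right), as a percentage of the intronic hairpins, for names miR-6896 to miR-7094 (red, 198 hairpins) and all other names (blue, 400). Bars marked "before" are hairpins reaching past the intron. The red bars pile up at 0 on the right, where the hairpin ends on the splice acceptor, and lie mostly beyond 10 bases on the left.

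The annotated mature strands, which lie within these hairpins, showed the same position. Of 177 3p sequences in the range, 138 (78.0%) ended in AG, against 58 of 532 (10.9%) among all other mouse names, and 56 of the 83 3p members with a sequence and a row did (67.5%). Of 175 3p arms that could be placed, 136 (77.7%) ended on the last base of the intron and 168 within 5 bases of it. By contrast 15 of 175 5p arms started on the first base, and GU opened 15 of 178 5p sequences in the range (8.43%) and 22 of 519 outside it (4.24%). The 3p strands were rich in pyrimidines, with a median of 72.2% in the range and 54.5% outside, and the 5p strands in G, with medians of 43.5% and 27.3%. The median length of 22 bases was the same for both arms inside and outside the range.

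Few seeds were shared. The 170 members with a sequence held 166 different seeds, and the 4 shared ones joined miR-6916-5p with miR-6942-5p, miR-6904-5p with miR-6914-5p, miR-6927-3p with miR-6945-3p, and miR-6911-5p with miR-7028-5p. No member shared its seed with any of the 100 miRNAs outside the range with a sequence and a base mean of at least 1000. The base mean is the authors' normalised count averaged over all 4 libraries. With any listed miRNA outside the range that had a sequence, 12 members shared a seed. The partner with the highest base mean was miR-130b-5p, at 955, which has the seed of miR-7014-3p. The next was miR-18a-3p, at 419, with the seed of miR-7069-3p.

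The 4 libraries differed in depth. Whole read counts could be recovered for each library from the group means, and totalled 8668774 and 8930660 in ASO and 4949804 and 2812572 in CRO, without miR-155-5p, whose ASO counts could be split in more than 1 way. The recovered libraries are called a and b within each group, since they cannot be tied to the labels' replicate numbers. Among the markers of the labelled cells, the arms of miR-142a, found in all blood cells, had summed group means of 931069 in ASO and 794119 in CRO. By library these sums were 863247 and 998891 in ASO and 912375 and 675863 in CRO, with overlap. Lymphocyte miR-150-5p and miR-342-3p together had group means of 222066 in ASO and 288742 in CRO. Their libraries overlapped too, at 246013 and 198120 in ASO and 209375 and 368108 in CRO. For miR-155-5p, known from activated T cells, the group means were 1014550 in ASO and 865313 in CRO. miR-181a-5p, known from thymocytes and T cells, had 4946 and 5277 normalised counts in ASO and 7143 and 8874 in CRO, lower in both ASO libraries. Of 11 markers of other cell types 10 were listed, and their summed normalised counts were 10943 and 11080 in ASO and 12894 and 13983 in CRO. The muscle marker miR-1a-3p had 2 counts in 1 ASO library and 0 elsewhere, and epithelial miR-205-5p at most 3 counts in a library.

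Against that depth the intronic block was faint. The median base mean of the 187 members was 0.898, against 14.2 for the other 886 entries and 1.53 for the 166 of these that also carry late names, numbered 5000 or above. A level of 1 or more was reached by 85 members (45.5%), 724 other entries (81.7%) and 99 late names (59.6%). A level of 10 or more was reached by 5 members (2.67%), 477 other entries (53.8%) and 35 late names (21.1%). The median member rested on 4 reads over all 4 libraries, 117 members on 5 reads or fewer, and 40 on a single read. The block was thus listed at length but lay low even beside other late names.

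**Figure D2:**
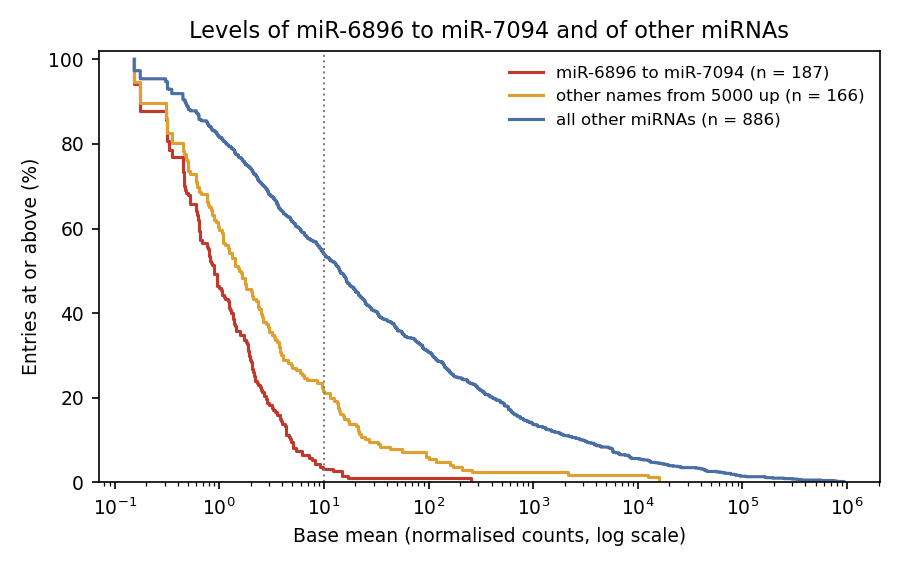
Percentage of entries (vertical axis) at or above each base mean in normalised counts (horizontal axis, log scale), for miR-6896 to miR-7094 (red, 187 entries), other names numbered 5000 or above (orange, 166) and all other miRNAs (blue, 886, which include the orange ones). The dotted line is a base mean of 10, which 5 of the red entries reach.

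Being listed also depended on the library. RefSeq holds 355 mature names in the range and 170 of them (47.9%) had a row, against 720 of 1324 names outside it (54.4%). Members with at least 1 read numbered 124 and 113 in ASO and 86 and 90 in the shallower CRO libraries. At the total of the shallowest library, CRO library b (without miR-155-5p, and without regard to size factors), the number expected from the counts was 79.1 and 71.5 in ASO, and 67.4 in CRO library a beside the 90 counted in CRO library b. The same reckoning gave 689.6 and 676.7 other entries in ASO, and 676.3 and 687 in CRO. By this reckoning the numbers of members in the ASO libraries lay between those in the CRO libraries. Only 38 members (20.3%) had a read in all 4 libraries, against 598 (67.5%) of the other entries. The group mean was 0 in ASO for 28 members and in CRO for 63, and CRO had the lower totals.

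The block took a very small share of the reads. Its members summed to 770 and 652 reads in ASO and to 548 and 444 in CRO. Without miR-155-5p in the total these were 0.00888% (Wilson 95% interval 0.00828 to 0.00953) and 0.00730% (0.00676 to 0.00788) of reads in ASO, against 0.0111% (0.0102 to 0.0120) and 0.0158% (0.0144 to 0.0173) in CRO. The intervals cover counting error only. Both CRO shares lay above both ASO shares, and a single member accounted for most of that gap. On the normalised scale the members summed to 473 and 459 in ASO and 701 and 798 in CRO. Without miR-7033-5p they summed to 314 and 343 in ASO and 304 and 442 in CRO, and the groups overlapped. The log2 ratio of the summed means, ASO over CRO, was −0.69 with that member and −0.18 without it.

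miR-7033-5p, from the intron of Pom121 shown above, stood far above the rest. Its base mean of 256.9 was 15.2 times that of the next member and ranked 207 among all 1073 miRNAs. Its reads numbered 259 and 165 in ASO and 310 and 198 in CRO, which made 33.6% and 25.3% of the members' reads in ASO and 56.6% and 44.6% in CRO. The normalised counts were 159 and 116 in ASO and 396 and 356 in CRO, that is 138 ± 30.6 in ASO and 376 ± 28.8 in CRO (SD, n = 2 recovered libraries each). Both ASO libraries were well below both CRO libraries. In the authors' deposited table, the log2 ratio turned to ASO over CRO was −1.45, with p = 0.000173 and adjusted p = 0.0160 by DESeq.

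miR-7033-5p was the only member called, 1 of 187. Over all 1073 miRNAs the authors' deposited table had an adjusted DESeq p under 0.05 for 13, a background of 1.21%, and 12 of these (1.12%) were lower in ASO. The background was 2.7%, or 2.49% for lower in ASO, among the 482 miRNAs whose base mean reached 10, and 1 of the 5 members there was called. By an unadjusted DESeq p under 0.05 in the authors' deposited table miR-7033-5p was again the only member, where 2.8% of all miRNAs were called, or 1.96% with a 2-fold difference as well. For each of the other 186 members the authors' deposited table gave 1 as the adjusted p. miR-7094-3p came next in the authors' deposited table, with an unadjusted DESeq p of 0.184, so 0 members were higher in ASO at an unadjusted p under 0.05.

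limma, fitted to log2(normalised count + 1) of the recovered libraries, put miR-7033-5p at a log2 ratio of −1.46 ± 0.27 (SE), with adjusted p = 0.0257 over the 482 miRNAs tested. It called 14 of the 482 lower in ASO, a background of 2.9%. This call rested on each ASO library: the limma adjusted p was 0.0576 without ASO library a and 0.342 without ASO library b, with log2 ratios of −1.69 and −1.23. Scaling by library totals gave a limma adjusted p of 0.164, and by the upper quartile 0.0608, while the log2 ratio stayed between −1.49 and −1.37. With 2 libraries against 2, an exact two-sided permutation test of this value alone cannot go below p = 0.333. The summed erythroid markers miR-451a, miR-144-3p and miR-486a-5p also lay lower in ASO, at 1581 and 1313 in ASO and 2228 and 2409 in CRO. So did the summed epithelial markers, at 2341 and 2158 in ASO and 2948 and 3208 in CRO. Myeloid miR-223-3p was lower in ASO as well, at 5572 and 5636 in ASO and 6127 and 7204 in CRO. Endothelial miR-126a-3p overlapped, at 1374 and 1887 in ASO and 1555 and 1137 in CRO. The liver marker miR-122-5p lay higher, at 75.0 and 84.4 in ASO and 35.8 and 25.1 in CRO. Of the 10 listed markers of other cell types, 7 had a lower mean in ASO. Neither their part in the difference of miR-7033-5p nor that of miR-181a-5p, which was also lower in ASO, was tested. Fewer cells of a type and less RNA per cell cannot be told apart in such bulk samples.

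**Figure D3:**
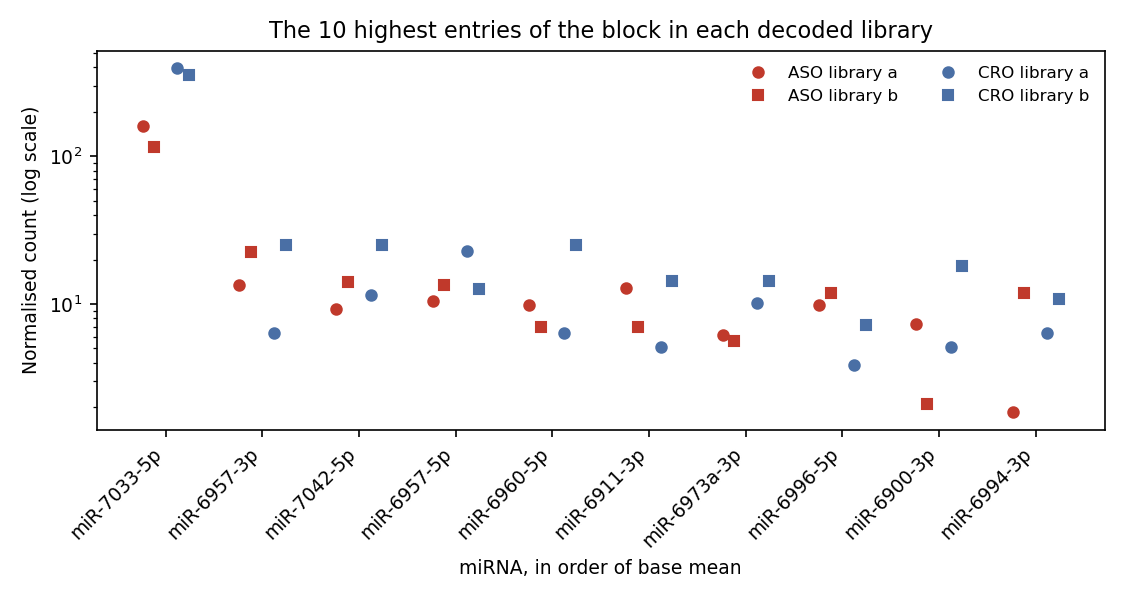
Normalised counts (vertical axis, log scale) of the 10 members with the highest base mean in the recovered libraries, ASO library a and b in red and CRO library a and b in blue. miR-7033-5p lies above 100 in every library with both ASO points below both CRO points. The other 9 lie below 26 and are scattered.

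Below miR-7033-5p, 4 members passed a base mean of 10. Both arms of miR-6957 were among them, from the end of a 2326-base intron of Grap2 (hairpin at chr15:80646073-80646136, plus strand), which encodes GADS, an adaptor of T cell receptor signalling. miR-6957-3p had 13.5 and 22.5 normalised counts in ASO and 6.39 and 25.1 in CRO. miR-6957-5p had 10.5 and 13.4 in ASO and 23.0 and 12.6 in CRO. The ASO values of each arm fell within or overlapped the span of the CRO values. The authors' deposited table, turned to ASO over CRO, gave log2 ratios of 0.19 for miR-6957-3p and −0.58 for miR-6957-5p, with an adjusted DESeq p of 1 for each. By limma they were 0.41 ± 0.65 (SE, adjusted p = 0.830) and −0.49 ± 0.49 (SE, adjusted p = 0.775).

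miR-7042-5p comes from the end of a 2359-base intron of Tatdn2, which encodes a TatD-type nuclease domain protein (hairpin at chr6:113707208-113707265, plus strand). It had 9.22 and 14.1 normalised counts in ASO and 11.5 and 25.1 in CRO. miR-6960-5p, from a 1963-base intron of Troap (hairpin at chr15:99080805-99080865, plus strand), had 9.84 and 7.03 in ASO and 6.39 and 25.1 in CRO. The groups overlapped for both, and CRO library b held the highest value of each. By limma the log2 ratios were −0.54 ± 0.53 (SE, adjusted p = 0.775) for miR-7042-5p and −0.58 ± 0.69 (SE, adjusted p = 0.807) for miR-6960-5p, and the adjusted DESeq p in the authors' deposited table was 1 for each. miR-6960-5p, at a base mean of 12.1, was the lowest member inside the limit of 10, and miR-6911-3p, at 9.86, the highest one outside it.

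Over the 5 members with a base mean of at least 10 the median log2 ratio was −0.65, against 0.041 over all 482 such miRNAs. The ratio was below 0 for 4 of the 5, where 46.9% of the 482 were. ASO and CRO libraries did not overlap for 1 of the 5, miR-7033-5p, where 41.9% of the 482 were apart and 18.7% were apart with ASO lower. From 1 of 5 members no difference from either background can be read. Leaving out CRO library b moved the median to 0.017, and leaving out CRO library a to −1.11, so its size was set by single libraries.

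**Figure D4:**
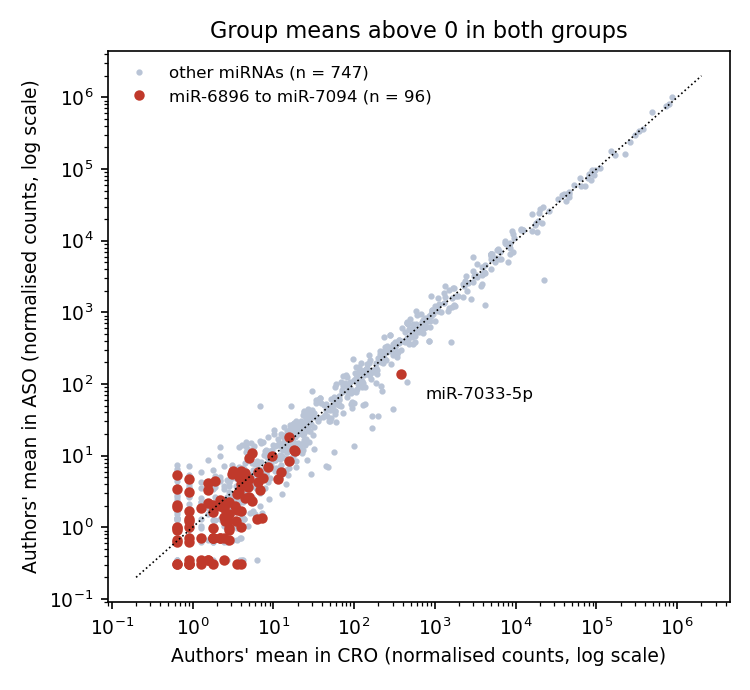
Group means of normalised counts in ASO (vertical axis) against CRO (horizontal axis), both on log scales, for the 96 members (red) and 747 other miRNAs (grey) above 0 in both groups. The dotted line marks equal means. miR-7033-5p stands alone among the red points, below the line at 138 in ASO and 376 in CRO, and most of the others lie near or below 10.

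The 5 members just under a base mean of 10 showed how few reads such values rest on. miR-6911-3p, from an intron of Dazap1, an RNA-binding protein gene, had 21 and 10 reads in ASO and 4 and 8 in CRO. miR-6973a-3p, from the end of a 366-base intron of Ltb, the gene of lymphotoxin beta, had 10 and 8 reads in ASO and 8 and 8 in CRO. Scaled to library size, miR-6973a-3p had 6.15 and 5.63 normalised counts in ASO and 10.2 and 14.4 in CRO, and the groups did not overlap. miR-6996-5p, from a 215-base intron of the receptor gene Notch1, lay the other way. It had 16 and 17 reads in ASO and 3 and 4 in CRO, or 9.84 and 11.96 normalised counts in ASO and 3.84 and 7.19 in CRO, again without overlap. The authors' deposited table gave both an adjusted DESeq p of 1, with log2 ratios turned to ASO over CRO of −1.06 for miR-6973a-3p and 0.98 for miR-6996-5p.

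miR-6900-3p, from an intron of Ndufa10, a subunit gene of mitochondrial complex I, had 12 and 3 reads in ASO and 4 and 10 in CRO. miR-6994-3p, from an intron of Patl1, an mRNA decapping factor gene, had 3 and 17 reads in ASO and 5 and 6 in CRO. Replicate libraries of 1 group differed as much as the groups did for these, with normalised counts of 7.38 and 2.11 in ASO and 5.12 and 18.0 in CRO for miR-6900-3p. Of the 12 members with a base mean from 5 to under 10, 7 had a lower mean in ASO, where 48.8% of all 80 miRNAs at that level did, and 6 had groups that did not overlap, where 36.2% of the 80 did. Among the 182 members under 10, 91 had a finite ratio and 44 of these were 2-fold or more apart. At that level 1 read was worth 0.615 and 0.703 normalised counts in ASO and 1.28 and 1.80 in CRO. The matching share over all miRNAs under 10 was not counted, so no trait of the members can be read from it.

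Arm use was followed in the hairpins with both strands in the table. Matched by name these were 53 of 134, while 40 names had only a 5p row and 41 only a 3p row. miR-7094-3p and miR-7094-1-5p count there as separate names, with base means of 4.33 and 0.959, although both lie in the hairpin Mir7094-1, because the same 3p strand also lies in Mir7094-2 and its reads cannot be divided between the copies. With a summed base mean of at least 1 there were 44 such hairpins, and 25 of them had more 3p than 5p, with a median 3p share of 56.7%. The larger arm held a median of 78.6% of the reads and at least 90% in 10 of the 44. Among 275 hairpins outside the range at the same limit, 127 had more 3p, the larger arm held a median of 91.2%, and in 143 it held at least 90%. At these low counts the share of the larger arm is loosely set, since 1 or a few reads decide it, and no test was made. A hairpin also enters only with a read of each arm, which caps the larger arm's share where reads are few. Names with 1 listed arm, miR-7033 among them, are left out, and outside the range 278 of 476 names had both. The shares inside and outside the range are therefore not compared like for like.

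At a summed base mean of at least 10 there were 4 hairpins with both arms listed, miR-6957, miR-7042, miR-6911 and miR-6994. miR-7033 and miR-6960 also reached that level but had a 5p row only. miR-6957 used both arms, with 22 reads of 3p to 17 of 5p and 32 to 19 in ASO, and 5 to 18 and 14 to 7 in CRO. miR-7042 was mostly 5p, with 1 read of 3p to 15 of 5p and 0 to 20 in ASO, and 2 to 9 and 3 to 14 in CRO. The 5p arm of miR-7042 led in all 4 libraries, while the leading arm of miR-6957 was 5p in CRO library a and 3p in the other 3.

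miR-6911 was mostly 3p, with 21 reads of 3p to 4 of 5p and 10 to 0 in ASO, and 4 to 4 and 8 to 1 in CRO. miR-6994 had 3 reads of 3p to 6 of 5p and 17 to 6 in ASO, and 5 to 2 and 6 to 3 in CRO. By base mean the 3p share was 53.2% for miR-6957, 12.5% for miR-7042, 80.8% for miR-6911 and 66.1% for miR-6994. Over the whole block, 3p arms held 31.9% and 39.4% of the reads in ASO and 18.8% and 29.7% in CRO. The 5p arms thus held more reads in every library, and the 3p share was higher in both ASO libraries than in both CRO libraries. Without miR-7033-5p, a 5p arm, the 3p share was 48.1% and 52.8% in ASO and 43.3% and 53.7% in CRO, with overlap between the groups and no arm ahead in all 4 libraries.

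**Figure D5:**
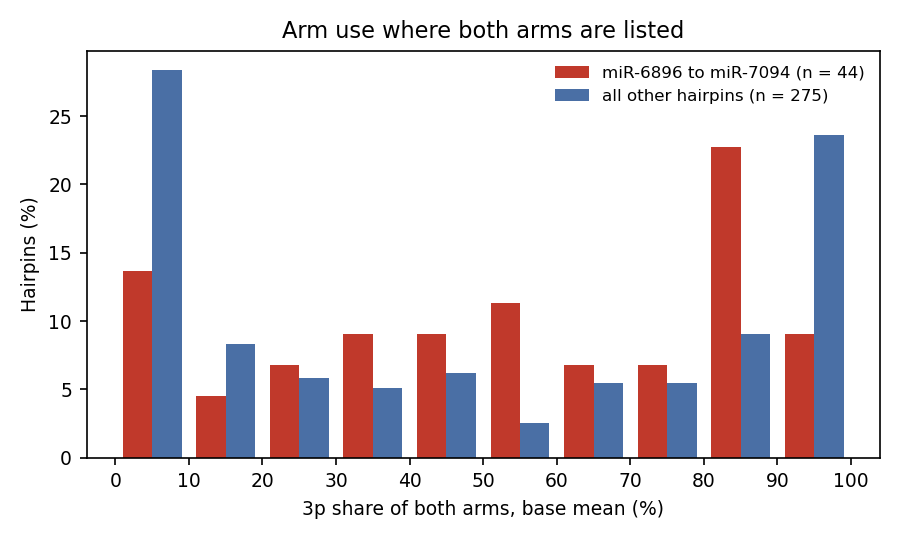
Share of hairpins (vertical axis, percent) by the 3p share of the base mean of both arms (horizontal axis, percent, in steps of 10), for miR-6896 to miR-7094 (red, 44 hairpins) and all other hairpins (blue, 275) with both arms listed and a summed base mean of at least 1. The blue bars stand highest at both ends, where 1 arm holds nearly all reads, and the red bars are spread more evenly with a peak from 80 to 90. Hairpins with 1 listed arm are left out, which keeps hairpins of few reads away from both ends.

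Hairpins that are whole introns also lay at low levels. The 14 members from 8 whole-intron hairpins had a median base mean of 1.999 and a maximum of 5.07, against 0.857 for the 155 members with only the acceptor end, whose maximum is miR-7033-5p. The maximum of 5.07 was miR-6974-5p, from the Lta intron shown above, with 7 and 10 reads in ASO and 7 and 0 in CRO. Its partner miR-6974-3p had 7 and 9 reads in ASO and 1 and 0 in CRO. Both arms of miR-6974 had no read in CRO library b, and the authors' deposited table gave each an adjusted DESeq p of 1. miR-7058, picked after its values were seen because its host is a T cell gene, fills the 75-base intron of Lat, the membrane adaptor of T cell receptor signalling. Its base means were 2.49 for miR-7058-3p and 2.08 for miR-7058-5p.

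The letters of some mature strands also occur in longer annotated transcripts. Of the 170 members with a sequence, 28 were found whole in an annotated transcript that is not a miRNA, 27 of them in the sense direction and 9 in a protein-coding transcript. The highest of these, miR-7036b-5p, lies in a transcript of Add1 and had a base mean of 5.08. Of the 5 members at 10 or more, miR-7033-5p, miR-6957-3p and miR-6960-5p had a sequence, and 0 of these were found in such a transcript. miR-6957-5p and miR-7042-5p had no sequence and were not searched.

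Of the miRNAs named as mirtrons before this block of names was given, miR-877, miR-1224 and miR-702 were looked up. Among their 6 arms, 4 were listed. miR-877-5p had 40.0 and 33.8 normalised counts in ASO and 44.8 and 43.1 in CRO, and miR-877-3p had 19.1 and 14.1 in ASO and 12.8 and 16.2 in CRO. The groups overlapped for miR-877-3p, and for miR-877-5p both ASO values were below both CRO values by a small margin. By limma the log2 ratios were −0.25 ± 0.32 (SE, adjusted p = 0.812) for miR-877-5p and 0.18 ± 0.44 (SE, adjusted p = 0.882) for miR-877-3p. miR-702-5p had 3 and 4 reads in ASO and 0 and 0 in CRO, and miR-702-3p had 4 and 0 in ASO and 3 and 2 in CRO. The adjusted DESeq p was 1 for each of the 4 by the authors' deposited table, and miR-1224 had no row.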

How the data were processed

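Small RNA libraries (TruSeq small RNA kit, per the labels' protocols) were counted per miRNA by the authors. DESeq (version not listed) and the mm9 build come from the submitters' processing notes, while aligner and miRNA annotation are not given in the sources used. Per the file headers, the deposited signal values are DESeq base means, that is counts divided by size factors and averaged over libraries. The deposited fold ratio and its log2 are CRO over ASO and were turned to ASO over CRO. The deposited p-values and adjusted p-values (threshold 0.05) are the main test.

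Each group mean was split into the 2 whole counts that give it. All 1073 miRNAs could be written so, and each of the 187 members in 1 way. Median-ratio size factors recomputed from these counts were 1.63 and 1.42 in ASO and 0.782 and 0.557 in CRO. Replicate libraries differed beyond sampling noise (chi-square over degrees of freedom 147.6 in ASO and 265.6 in CRO). limma 3.58.1 (R 4.3.3; trend, robust) was run on log2(normalised count + 1) of the 482 miRNAs whose base mean reached 10, with Benjamini-Hochberg adjustment. Scripts were tested on simulated data.

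Members named by rule are those with a base mean of at least 10, the 5 next below, and the other arms of these hairpins. Others are named outside that rule, with shared seeds, the next smallest p, arm names, whole-intron hairpins or transcript matches. The members and lists were chosen with earlier results of these data known. Sequences are from RefSeq (170 of 187 members matched) and intron positions from GENCODE M21 (132 of 134 hairpin names matched), both on GRCm38. Host gene mRNA was not measured.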

Additional observations from a re-analysis of the deposited data

How the results depend on the processing

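By the authors' adjusted p, by limma, by unadjusted p with a 2-fold difference, and after readjusting p above a base mean of 10 or 50, 1 member was lower and 0 higher in ASO. The limma count of 1 fell to 0 with library totals and with the upper quartile, and ranged from 0 to 1 when each library was left out (0 without ASO library a or b), where the lone library of a group is taken to vary as the other group does. Library totals moved the median log2 ratio of all 482 miRNAs by −0.040. Of 51 single-member alternatives 45 kept direction and call, 4 lost the call of miR-7033-5p, and 2 uncalled members turned direction: miR-6957-3p to −0.50 without CRO library a (range −0.50 to 1.32 over the libraries left out) and miR-6960-5p to 0.34 without CRO library b (range −1.49 to 0.34). The cause was not tested.

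The members' median log2 ratio was −1.45 at a base mean of at least 50 (1 member) and ranged from −1.11 to 0.017 when each library was left out. At a base mean of at least 5 there were 17 members and at 20 there was 1, against 5 at 10, and 4 to 8 when each library was left out. Among hairpins with both arms listed, 25 of 44 had more 3p than 5p at a summed base mean of at least 1, against 3 of 4 at 10. The count at 10 was 2 to 3 and the median 3p share 54.1% to 64.6% when each library was left out. No hairpin with both arms listed reached 50. The members' share of the summed means without miR-155-5p was 0.00803% in ASO and 0.0132% in CRO. Without miR-7033-5p, an alternative chosen after seeing the data, it was 0.00566% in ASO and 0.00656% in CRO. When each library was left out it ranged from 0.00730% to 0.00888% in ASO and from 0.0111% to 0.0158% in CRO. No paired analysis was possible because the recovered libraries carry no replicate number. Depth limits most members, since 117 of 187 rest on 5 reads or fewer.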
